A study of Mus musculus with 2 samples.

Results

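The elastic fibre genes followed here were Eln, Fbn1, Fbln1, Fbln2, Fbln5, Efemp1, Efemp2, Mfap4, Mfap5 and Emilin1. These 10 genes were chosen by name from what their proteins are known to do, but with earlier results of these data known. They were read out of 15181 genes that appear in at least 1 of the deposited tables. All 10 were present in each of the 4 fibroblast subcluster tables, which hold 15059 genes each without any limit on size. Interstitial cells of mouse ventricles were profiled by droplet single-cell RNA-Seq after MI, made by ligating the left anterior descending coronary artery. Mice were 8 to 10 weeks old at surgery. The control library came from PostnMCM mice, in which the Postn locus drives a Cre recombinase (MerCreMer) that becomes active under tamoxifen, mainly in fibroblasts that turn into myofibroblasts after injury. The other library came from Yapfl/fl;Wwtr1fl/+;PostnMCM mice, which in addition carry loxP-flanked alleles of Yap1 on both chromosomes and of Wwtr1, the gene for TAZ, on 1 chromosome. A Cre-dependent eGFP reporter was carried by both strains, both ate chow with 0.4 g/kg tamoxifen from the day of injury, and the labels give 6 days after MI for collection, whereas the study's methods give a later day. There was 1 library per genotype, so every value below describes these 2 libraries. No test, error or interval could be given, and how many hearts were pooled into each library is not given in the sources used here.

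Elastic fibres give tissues their recoil. Fibroblasts secrete tropoelastin, the product of Eln, which fibulins guide onto a scaffold of fibrillin microfibrils, where lysyl oxidases crosslink it into an insoluble core. In the heart these fibres are made mostly by fibroblasts and by cells of vessel walls, and after infarction their components are laid down in the scar beside the collagens. The comparison therefore asks whether transcripts of this assembly line differ in fibroblasts of hearts in which Cre targets Yap1 and Wwtr1, the transcriptional co-activators of the Hippo pathway.

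The values are the authors' deposited ones. A share is the percent of cells of a subcluster with a corrected count of the gene above 0. The deposited log2 fold change adds a pseudocount of 1 to the mean level per cell, compares the library labelled Yap/Wwtr1-depleted against the control library, and is negative where the library labelled depleted was lower. A difference of at least 0.25 on this scale is called lower or higher here, which is the limit that the deposited cluster tables apply. The second library is named by its label because the mean level of Yap1 transcript was not lower in it. Its log2 fold change was 0.07, 0.31, 0.04 and 0.26 in subclusters 0, 3, 4 and 5, while that of Wwtr1 was 0.15, -0.30, -0.21 and -0.16. The share of cells with Yap1 was lower in subcluster 4 (57.5% of control cells and 40% of the other library) and higher in the other subclusters. By immunostaining the study reports reduced nuclear Yap and Wwtr1 protein in eGFP-positive cells of this genotype, and transcript counts do not measure protein. Of 8 fibroblast markers, Col1a1, Col1a2 and Dcn were found in 100% of cells of both libraries in subcluster 5, and the sum of their 8 shares was between 461.4% and 665.3% in the control library and between 481.3% and 714.4% in the other, over the 4 subclusters. Tcf21 and Dpep1 were at 0 in the library labelled depleted in subcluster 0, and in only 2.1% and 3.4% of control cells there. Epicardial markers were also abundant in subclusters 0, 3 and 4, where the summed share of 6 such genes was between 404.3% and 512.5% in either library. The tables give neither cells nor depth per subcluster. The smallest share above 0 in a table bounds how finely shares were resolved, and it was 0.7% in the control library and 3.1% in the library labelled depleted in subcluster 0, 3.3% and 4.3% in subcluster 3, 2.5% and 10.0% in subcluster 4, and 4.3% and 4.8% in subcluster 5.

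By mean level per cell, elastic fibre genes differed most between the libraries in subcluster 5 of the 4 subclusters, which the study describes by extracellular matrix and contractile genes. There 6 of the 10 were lower in the library labelled depleted (Eln, Mfap5, Efemp1, Fbln5, Fbn1 and Fbln2), 2 were higher (Emilin1 and Mfap4), and Fbln1 and Efemp2 lay within 0.25 of 0. Of all 15059 genes in this subcluster, 14.7% were lower and 12.6% were higher by the same limit, and of genes with a mean share of cells of at least 25%, a group that held 9 of the 10, 23.0% and 20.1%. A log2 fold change of -1 or lower was reached by 5 of the 10 genes, against 0.896% of all genes (135 genes). Of the genes with a mean share of at least 25%, 1.61% reached -1, as did 4 of the 9 elastic fibre genes among them, while Efemp1 was detected in fewer cells. The median log2 fold change of the 10 genes was -0.88, and that of all genes was 0. By share of cells the order was another: with the log2 ratio of shares 0 genes were lower or higher by 0.25 in subcluster 5 in place of 8, while 3 were lower in subcluster 3, where Emilin1 differed by -25.8 points, 2 were lower and 2 higher in subcluster 4, and 1 was higher in subcluster 0.

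In the other subclusters the list was split between directions. In subcluster 3, described by the study as proliferating myofibroblasts, 4 genes were lower (Eln, Mfap5, Fbln5 and Mfap4) and 2 were higher (Efemp1 and Fbn1), beside 9.68% and 9.13% of all genes (15.1% and 13.3% of those with a mean share of at least 25%), and the median of the list was -0.14. In subcluster 4, which carries matrifibrocyte markers, 3 genes were lower (Mfap4, Fbln1 and Fbln5) and 3 were higher (Efemp1, Eln and Fbn1), beside 13.3% and 17.0% of all genes (18.5% and 25% of the widely detected ones), counts near the latter shares, with a median of -0.02. In subcluster 0, the epicardial-like fibroblasts, Efemp2 alone was lower and 0 genes were higher, beside 6.37% and 7.61% of all genes (9.73% and 12.4% of the widely detected ones), and the median was -0.03. Of the 40 values (10 genes in 4 subclusters), 23 were below 0 and 17 above. Fbln5 and Efemp2 were below 0 in all 4 subclusters, 0 genes were above 0 in all 4, and the other 8 genes changed sign between subclusters. The share of all genes that kept the same sign in all 4 was not counted.

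**Figure D1:**
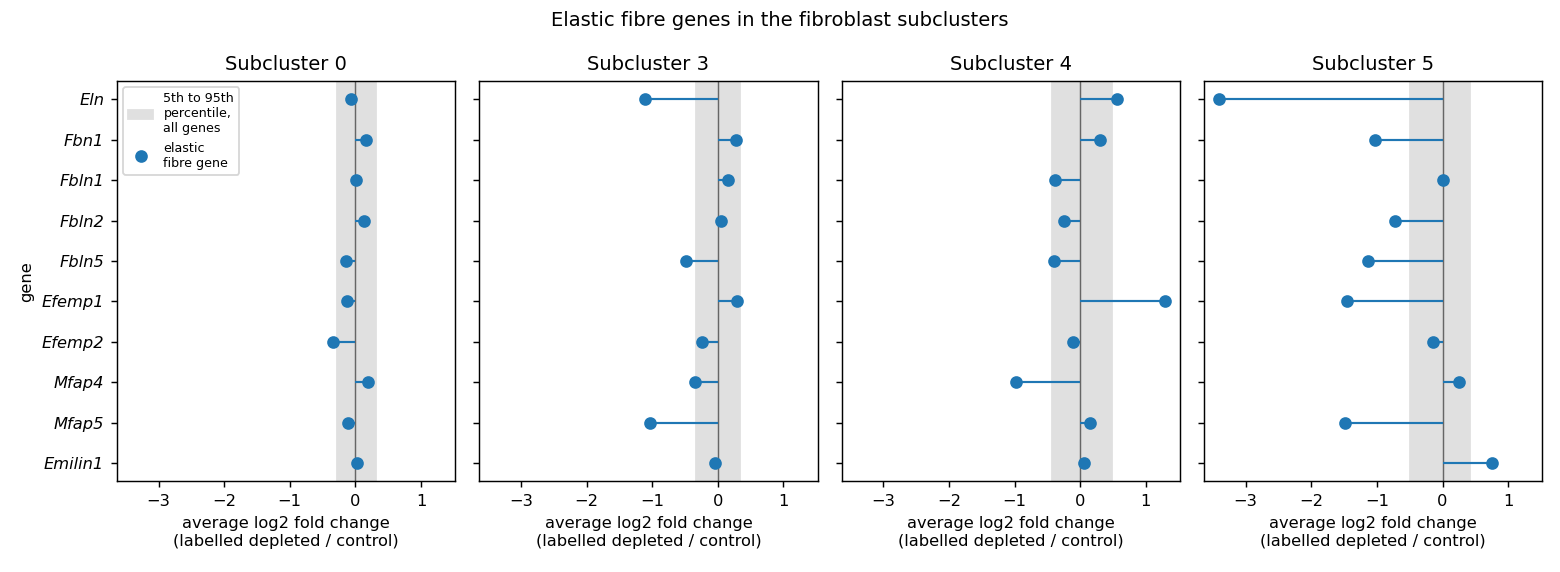
Deposited average log2 fold change (x axis, library labelled depleted over control) of each elastic fibre gene (y axis) in 4 fibroblast subclusters, with 1 library per group. The grey band spans the 5th to the 95th percentile of all 15059 genes. It reaches -0.28 and 0.31 in subcluster 0, and -0.49 and 0.42 in subcluster 5, where 6 genes lie below the band.

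Eln encodes tropoelastin, the elastic core of the fibre (chromosome 5, 134731445 to 134776322, minus strand, GRCm39). In subcluster 5 a count of Eln was found in 87.0% of control cells and in 81.0% of cells labelled depleted, and its log2 fold change was -3.40. The shares were thus near each other while the mean level per cell was far apart, and Eln was the lowest of all 15059 genes in that subcluster. In subcluster 3 the share was 96.7% in the control library and 73.9% in the library labelled depleted, with a log2 fold change of -1.11, the 13th lowest. In subcluster 0 the share was 99.3% and 87.5%, and the mean level was nearly equal at -0.06. In subcluster 4 the shares were 92.5% and 90%, and the fold change pointed the other way at 0.56, the 527th highest. Eln was therefore widely detected in every subcluster of both libraries, and its fold change spanned 3.97 on the log2 scale between subclusters 4 and 5. In the whole fibroblast cluster, whose values come from a separate normalization, Eln was listed at -0.75, with 88.3% of control cells and 82.4% of cells of the other library, the 26th lowest of 605 listed genes. The libraries fill the subclusters unequally: by the study's description subclusters 0, 2 and 4 came mainly from control hearts and subcluster 1 mainly from the others. A value of the whole cluster therefore sets partly different fibroblasts against each other, and a difference within cells cannot be told apart from one in the mix of subclusters.

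The microfibril genes did not move as a block. Fbn1 encodes fibrillin-1, the main microfibril protein (chromosome 2, 125142514 to 125349913, minus strand). It was found in 100% of cells of both libraries in subclusters 0, 4 and 5, and in 96.7% and 95.7% in subcluster 3. Its log2 fold change was -1.03 in subcluster 5, the 126th lowest, and 0.16, 0.28 and 0.30 in subclusters 0, 3 and 4. With nearly every cell positive in each library, the share says nothing about how much Fbn1 a cell held, and only the deposited mean level separated the libraries.

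Mfap5 encodes a small glycoprotein that binds fibrillin microfibrils, also called MAGP-2 (chromosome 6, 122470878 to 122508875, plus strand). In subcluster 5 it was in 100% of cells of both libraries and its log2 fold change was -1.48, the 44th lowest value. In subcluster 3 it was in 73.3% of control cells and 65.2% of cells labelled depleted, at -1.03, the 20th lowest. It was within 0.25 of 0 in subcluster 0 (-0.12, 93.1% and 87.5%) and subcluster 4 (0.16, 32.5% and 40%). In the fibroblast cluster as a whole Mfap5 was listed at -0.81, with 63.1% and 56.7% of cells, the 18th lowest of 605 and the lowest of the 3 elastic fibre genes listed there. Its share in control cells ran from 32.5% in subcluster 4 to 100% in subcluster 5. For this value too, a difference within cells cannot be told apart from one in the mix of subclusters.

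Mfap4 encodes another microfibril-associated glycoprotein, which binds tropoelastin (chromosome 11, 61376212 to 61379727, plus strand). The study uses it as a marker of subcluster 5, so its level across subclusters is part of how they were named. Between libraries it was lower in subcluster 4, at -0.97 with 57.5% of control cells and 40% of cells of the other library. In subcluster 3 it was at -0.34 with nearly the same share, 13.3% and 13.0%. It was higher by a narrow margin in subcluster 5, at 0.26 with 82.6% and 85.7%, and was at 0.19 in subcluster 0 with 13.1% and 25%. Emilin1 encodes elastin microfibril interfacer 1, found where elastin meets the microfibrils (chromosome 5, 31070717 to 31078622, plus strand). It was higher in subcluster 5, at 0.75 with 95.7% and 100% of cells, the 153rd highest value there. Elsewhere its mean level was nearly equal (0.02, -0.04 and 0.07 in subclusters 0, 3 and 4), although in subcluster 3 its share was 86.7% in the control library and 60.9% in the other. Mfap4 and Emilin1 were thus the 2 genes of the list that were higher in the subcluster where Eln, Mfap5 and Fbn1 were lower.

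**Figure D2:**
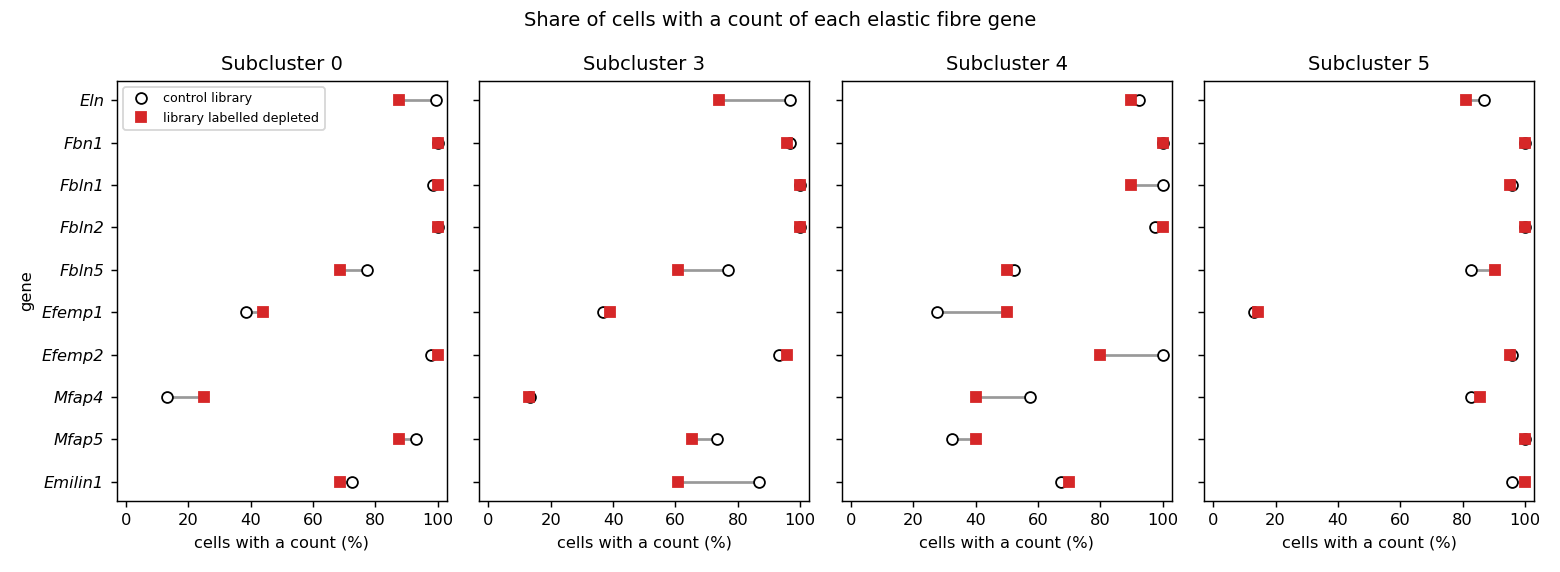
Percent of cells with a count of each gene (x axis) in the control library (open circles) and the library labelled depleted (red squares), for each elastic fibre gene (y axis) and subcluster. In subcluster 5 the 2 symbols lie within 7.9 points of each other for every gene, with Eln at 87.0% and 81.0%, whereas in subcluster 3 Eln is at 96.7% and 73.9% and Emilin1 at 86.7% and 60.9%.

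The fibulins are the proteins that bring elastin, microfibrils and crosslinking enzymes together. Fbln5 encodes fibulin-5, which binds tropoelastin and tethers it to microfibrils and to integrins (chromosome 12, 101712556 to 101785429, minus strand). In subcluster 5 it was in 82.6% of control cells and 90.5% of cells labelled depleted, yet its log2 fold change was -1.13, so that a larger share of cells went with a lower mean level. In subcluster 3 both measures were lower in the library labelled depleted (76.7% and 60.9%, -0.49), as in subcluster 4 (52.5% and 50%, -0.39) and, within the limit, in subcluster 0 (77.2% and 68.8%, -0.15). The fibroblast cluster as a whole listed Fbln5 at -0.39 with 52.7% and 38.5% of cells, the latter below its share in each of the 4 subclusters. The cluster value comes from a separate normalization and spans the subclusters not analysed here, so these shares are not on the same scale. Fbln5 was the only gene of the list at or below -0.25 in 3 subclusters.

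Efemp2 encodes fibulin-4, which brings lysyl oxidase to elastin (chromosome 19, 5523975 to 5532545, plus strand). It was below 0 in each subcluster, by little: -0.35 in subcluster 0 (97.9% and 100% of cells), -0.24 in subcluster 3 (93.3% and 95.7%), -0.11 in subcluster 4 (100% and 80%) and -0.15 in subcluster 5 (95.7% and 95.2%). Its range over the 4 subclusters, 0.24 on the log2 scale, was the narrowest of the 10 genes, and that of Eln was the widest.

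Efemp1 encodes fibulin-3, a fibulin with a lesser known part in elastin assembly (chromosome 11, 28803150 to 28876825, plus strand). It was the least widely detected of the fibulins. In subcluster 5 it was in 13.0% of control cells and 14.3% of cells of the other library, and its log2 fold change was -1.45, the 47th lowest. In subcluster 4 it was in 27.5% and 50%, and its log2 fold change was 1.29, the 23rd highest. It was at -0.13 in subcluster 0 (38.6% and 43.8%) and 0.29 in subcluster 3 (36.7% and 39.1%). The value in subcluster 5 rested on the small share of cells that held a count, and in subcluster 4 a share in the library labelled depleted could be resolved only to 10.0%.

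Fbln1 and Fbln2 encode fibulin-1 and fibulin-2, which bind elastic fibres and basement membranes (chromosome 15, 85090150 to 85170737, and chromosome 6, 91189437 to 91249522, both on the plus strand). Fbln1 was found in at least 90% of cells throughout and differed only in subcluster 4, at -0.39 with 100% of control cells and 90% of the other library. Its log2 fold change was 0.01 in subcluster 0 (98.6% and 100%), 0.15 in subcluster 3 (100% in both) and 0.01 in subcluster 5 (95.7% and 95.2%). Fbln2 was at -0.72 in subcluster 5 with 100% of cells in both libraries, at 0.13 and 0.05 in subclusters 0 and 3 with 100% in both, and at -0.25 in subcluster 4 (97.5% and 100%), where the unrounded value of -0.245 was just inside the limit.

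Promoter windows from RefSeq (table build GRCm38.p6, 250 bases before to 50 bases after each start) were matched to GRCm39 by exact identity. Of the 10 genes, 7 had 11 windows in the table, and Eln, Mfap4 and Mfap5 were not in it. Fbln5 and Efemp1 are shown because both were lower by more than 1 in subcluster 5 and part of their window lies before the first annotated exon. The Fbln5 stretch is chr12:101785430-101785628 on the minus strand (199 bases) and the Efemp1 stretch is chr11:28802955-28803149 on the plus strand (195 bases), both intergenic and directly before the annotated gene. Capitals mark a match to TGANTCA, the AP-1 word.
Fbln5: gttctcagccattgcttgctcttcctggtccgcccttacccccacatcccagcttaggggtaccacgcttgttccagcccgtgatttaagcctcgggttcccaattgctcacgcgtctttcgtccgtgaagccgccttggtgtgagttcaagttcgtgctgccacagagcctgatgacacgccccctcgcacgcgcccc
Efemp1: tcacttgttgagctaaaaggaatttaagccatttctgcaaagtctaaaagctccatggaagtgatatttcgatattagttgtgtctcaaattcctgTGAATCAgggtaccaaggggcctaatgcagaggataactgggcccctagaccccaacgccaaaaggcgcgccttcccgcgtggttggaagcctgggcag
GGAATG, the word bound by TEAD factors, the DNA-binding partners of YAP and TAZ, was searched on both strands and was in 0 of the 11 windows, and 14.7% of 32851 windows of the same length in the table hold it. The AP-1 word was in 1 of the 11 windows, that of Efemp1, starting 154 bases before the start, and 7.81% of all windows hold it. The words do not overlap each other, and a match or its absence describes only these letters.

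Share of cells and mean level often parted. Across the 40 values, both shares were at least 95% in 15, the shares were equal in 8, and the direction of the share was opposite to that of the fold change in 10. Of those 10, 5 were past 0.25 in fold change (Efemp2 in subcluster 0, Fbn1 in subcluster 3, Eln in subcluster 4, and Fbln5 and Efemp1 in subcluster 5). In subcluster 5, where the mean level of 6 genes was lower, the summed share of the 10 genes was 852.3% in the control library and 861.9% in the other. The libraries differed in the mean level of these genes in subcluster 5, and by at most 7.9 points in the share of cells.

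Partners of the elastic fibre were read from 4 lists, counted by the same limit. The shares of widely detected genes to set beside their counts are those given above, 9.73% lower and 12.4% higher in subcluster 0, 15.1% and 13.3% in subcluster 3, 18.5% and 25% in subcluster 4, and 23.0% and 20.1% in subcluster 5, and some of the counts lie near them, such as 4 of 18 microfibril and assembly genes higher in subcluster 4. Of 18 measured genes of microfibrils and fibre assembly (20 listed, with Adamtsl6 and Fbln7 not in the tables), 8 were lower and 0 were higher in subcluster 5, with a median of -0.12, while 2 were lower and 5 higher in subcluster 0, 2 and 2 in subcluster 3, and 7 and 4 in subcluster 4. Mfap2, which encodes the fibrillin-binding protein MAGP-1, was the gene that differed most in subcluster 0, at -1.12 with 96.6% of control cells and 78.1% of the other library. It was also lower in subcluster 3 (-0.65) and subcluster 4 (-0.79), but was at 0.24 in subcluster 5, where the related Mfap5 was at -1.48. Fbn2, the gene of fibrillin-2, was at 1.13 in subcluster 4 (20% and 50% of cells), and Hmcn1, which encodes the fibulin-related hemicentin-1, was at 2.06 there (7.5% and 50%) and at 0.83 in subcluster 0. Adamtsl2, whose product binds fibrillin microfibrils, was at -1.28 in subcluster 5 with 30.4% and 33.3% of cells, and at -0.43 in subcluster 4.

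Among 5 crosslinking enzymes, Lox, the lysyl oxidase that crosslinks elastin and collagen, stood at -1.41 in subcluster 5 with 100% of cells in both libraries. It was at 0.24, -0.19 and -0.43 in subclusters 0, 3 and 4, and the fibroblast cluster listed it at -0.31 although its share was 65.1% in the control library and 78.1% in the other. Counted over the list, 2 enzymes were lower and 0 higher in subcluster 5 (median -0.11), 3 and 1 in subcluster 4, 0 and 0 in subcluster 3, and 0 and 2 in subcluster 0. Loxl1, the family member most tied to elastin, was at 0.32, -0.08, -0.34 and -0.11 in subclusters 0, 3, 4 and 5.

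Of 8 measured receptor genes (9 listed, with Itga8 not in the tables), 4 were lower and 1 was higher in subcluster 5 (median -0.22), 2 and 2 in subcluster 4, 2 and 1 in subcluster 3, and 0 and 1 in subcluster 0. Itga5, a subunit of the fibronectin receptor that also binds fibrillin-1, was at -1.54 in subcluster 5 with 78.3% and 42.9% of cells, and at 0.55 in subcluster 4 with 42.5% and 70% of cells. Of 10 measured elastases and inhibitors (11 listed, with Elane not in the tables), 6 were lower and 0 higher in subcluster 5 (median -0.40), 4 and 2 in subcluster 4, 3 and 3 in subcluster 3, and 4 and 2 in subcluster 0. Timp2, an inhibitor of matrix metalloproteinases, was lower in each subcluster (-0.87, -1.12, -0.60 and -0.52 in subclusters 0, 3, 4 and 5, with 100% of cells in both libraries throughout), and Timp1 was at -0.47, 0.41, -0.47 and -1.33 in the same order. Ctss, a cathepsin that cleaves elastin and is abundant in macrophages, was at 1.74 in subcluster 3 with 63.3% and 56.5% of cells, and at -0.34, -0.71 and -0.42 in subclusters 0, 4 and 5. All 6 macrophage markers were also above 0 in fold change in subcluster 3, with a median of 1.08 and Lyz2 at 1.75, and their part in the value of Ctss was not tested.

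**Figure D3:**
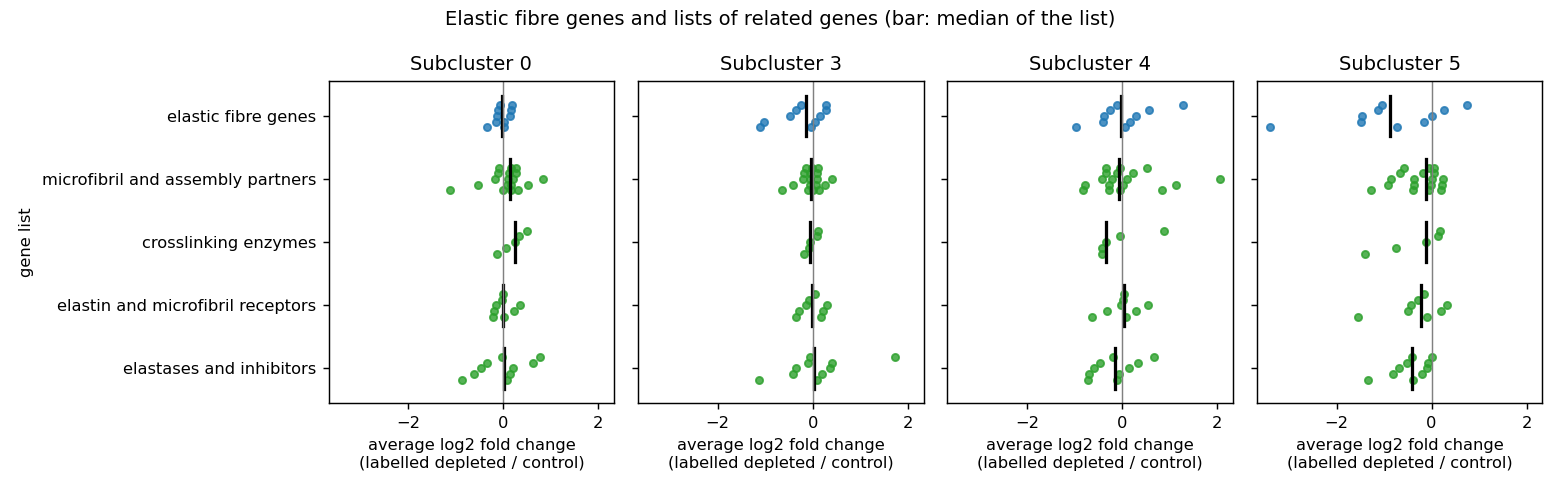
Deposited average log2 fold change (x axis, library labelled depleted over control) of each gene of the elastic fibre list (blue) and of 4 lists of related genes (green) in 4 subclusters, where each point is a gene and each bar the median of its list. In subcluster 5 the bar of the elastic fibre genes is at -0.88, and the bars of the related lists lie between -0.40 and -0.11.

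Other markers differed between the libraries of the same subclusters. In subcluster 5 the share of cells was lower in the library labelled depleted for 6 of 6 epicardial and mesothelial markers, with a summed share of 160.8% in the control library and 38.2% in the other. Wt1, the epicardial transcription factor, was in 73.9% and 14.3% of cells there (-1.08), and Msln was at 0 in the library labelled depleted. In fold change 3 of these 6 markers were lower and 0 higher in subcluster 5 (median -0.19), where Eln was at -3.40. In subcluster 3, 4 were lower and 1 was higher (median -0.35), where Eln was at -1.11. In subcluster 4, 0 were lower and 3 were higher (median 0.27, Msln at 1.32 and Krt19 at 1.25). Eln was at 0.56 and Efemp1 at 1.29 there. By share of cells, however, 4 of the 6 markers were lower and 2 higher in subcluster 4, with a summed share of 462.5% and 420%. In subcluster 0, 2 were lower and 1 was higher in fold change (median -0.05). The shares of all genes and of widely detected genes to set beside these counts are those given above for each subcluster. Tcf21, a transcription factor of resident fibroblasts, was in 43.5% and 81.0% of cells in subcluster 5 (1.13). Lum was at 0.99 there, with 100% of cells in both libraries. By the limit used throughout, these 2 of the 8 fibroblast markers were higher in subcluster 5, and 1 was lower (Ddr2 at -0.33). The other 5 lay within the limit. By sign alone 5 of the 8 were below 0, with a median of -0.03. Postn was at 1.0. Smooth muscle and pericyte markers, whose cells also make elastin, summed to 86.9% and 76.2% over 7 genes, with Cspg4, Kcnj8 and Abcc9 at 0 in the library labelled depleted and Myh11 at 0 in the control library, while Notch3 was in 13.0% of control cells and 47.6% of cells of the other library. They summed to between 34.6% and 65.6% in either library of the other subclusters. The summed share of 4 neutrophil markers was lower in the library labelled depleted in every subcluster, at 208.7% and 133.3% in subcluster 5 and 240% and 103.1% in subcluster 0, and the median of their fold changes was -3.03, -1.34 and -1.54 in subclusters 0, 3 and 4. In subcluster 5 their fold changes were between 0.10 and 0.46. The summed share of 6 macrophage markers was also lower in every subcluster, at 278.2% and 190.5% in subcluster 5 and 353.2% and 215.6% in subcluster 0, whereas in fold change 5 of the 6 were above 0 in subcluster 5, with C1qa at 1.05. Endothelial markers summed over 5 genes to between 17.2% and 80% in either library. The part of these differences in the values of the elastic fibre genes was not tested.

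Genes were ranked by how near their 4 fold changes lay to those of Eln, by mean absolute difference over the 4 subclusters. The nearest of 15058 genes were Sparcl1 (0.44), a matricellular protein of the SPARC family, Lpl (0.44), the lipoprotein lipase, Igfbp6 (0.46), an IGF-binding protein, Tppp3 (0.60), which binds tubulin, and Mfap5 (0.62). Of the other elastic fibre genes, Fbln5 came 119th, Efemp1 225th, Fbn1 312th and Fbln2 2625th, while Efemp2 (5509th), Fbln1 (13389th), Emilin1 (13756th) and Mfap4 (14655th) lay far from it. All 5 nearest genes were at -1.48 or below in subcluster 5, the value that carries the most weight in this measure. By the share of cells, over 4 subclusters and 2 libraries, the nearest genes to Eln were Cbx5 and Tmem147 (3.35 points each), Dynlt3 (3.91), Srsf10 (3.92) and Yy1 (3.95), and their fold changes in subcluster 5 were between -0.30 and 0.57. The elastic fibre gene nearest to Eln by share was Fbln1, at rank 642, and Mfap5 was at rank 2738. The genes nearest to Eln thus depended on the measure.

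**Figure D4:**
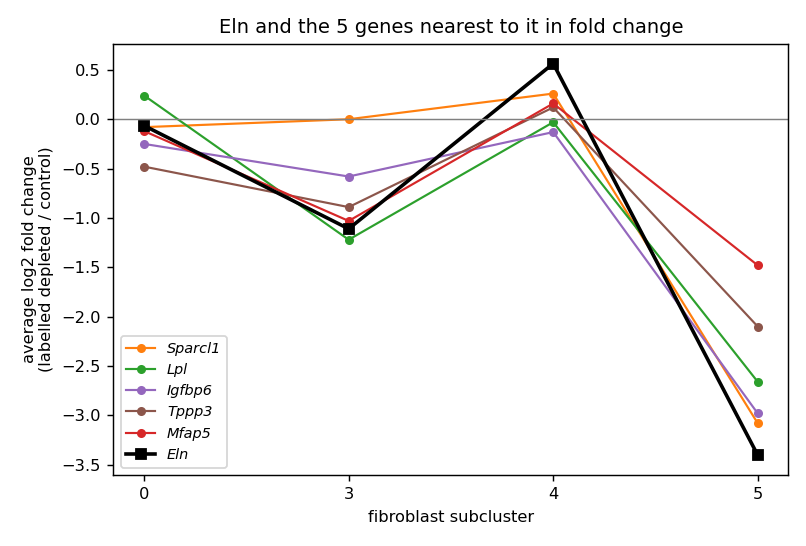
Deposited average log2 fold change (y axis, library labelled depleted over control) in fibroblast subclusters 0, 3, 4 and 5 (x axis, categories joined by lines for legibility) for Eln (black) and the 5 genes with the smallest mean absolute difference from it. Eln runs from 0.56 in subcluster 4 to -3.40 in subcluster 5, and Mfap5 from 0.16 to -1.48.

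Outside the subclusters, the tables of 18 cell clusters list only genes that differ by at least 0.25 with a share of at least 25% in 1 of the libraries, so a gene that is not listed has no value. In the fibroblast cluster, 3 of the 10 genes were listed, all of them lower (Mfap5, Eln and Fbln5) over the unequal mix of subclusters described above, and 2.26% of the 15181 genes were listed lower there. The epicardial and mesothelial markers Upk3b (-0.93), Upk1b (-0.91), Krt19 (-0.88) and Lrrn4 (-0.38) were listed lower too. So were the neutrophil markers S100a8 (-1.89) and S100a9 (-2.22), while the fibroblast markers Pdgfra (1.12), Lum (0.86) and Dcn (0.51) were listed higher. The part of these differences in the values of the 3 genes was not tested. Emilin1 was listed in 1 other cluster, the T cells of cluster 10, at -0.27 with 27.3% of control cells and 12.9% of cells labelled depleted, where 5.16% of genes were listed lower. Cluster 10 is described by the study as coming mainly from the Yapfl/fl;Wwtr1fl/+;PostnMCM hearts, and the smallest share above 0 was 9.1% in the control library and 0.5% in the other. None of the 8 fibroblast markers was listed there. The remaining 16 cluster tables listed none of the 10 genes, and 6 of the 10 were listed in none at all, among them Fbn1, Fbln1 and Fbln2. Without values in cells that should lack these genes, background from free RNA in the shares given above was not tested.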

How the data were processed

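Values were the authors' deposited comparisons of 2 libraries, with 1 row per gene, for 18 clusters and 4 fibroblast subclusters. Fibroblast subclusters 1 and 2 and cluster 16 were not analysed here. Per the submitters' processing notes, reads were processed with Cell Ranger 6.1.1 and Seurat on GRCm39. The authors sorted live cells, normalized counts with SCTransform, clustered the cells, and normalized and clustered the fibroblasts again, so cluster and subcluster values differ in scale. No doublet caller is named, so doublets may remain. The deposited fraction of cells with a count in each library was printed as a percent. The deposited log2 fold change was used as given, and its pseudocount of 1 understates differences of low genes. Deposited p-values, which the authors computed over cells, were not used, because cells are not replicates. The tables give neither depth nor number of cells per cluster or subcluster, and neither was inferred from the fractions. Members and lists were chosen with earlier results of these data known. Named genes were the 10 members, genes of the 4 related lists at 1 or more in size (log2) in a subcluster, Yap1, Wwtr1 and Postn, and the 5 genes nearest to Eln in share of cells. Likeness in fold change, and Loxl1 and single markers, were added after their values were seen. Detected genes had a mean share of at least 25%. Alternatives were limits of 0.5 and 1, centring, the mean and the log2 ratio of shares (each plus 1 percent). Calculations used Python 3.11.15, pandas 2.3.3 and numpy 2.4.6, and the counting was tested on simulated data. RefSeq promoters and GENCODE annotation were used for sequence.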

Additional observations from a re-analysis of the deposited data

Results flagged for a closer look

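For 2 genes the difference between libraries pointed in opposite directions in fibroblast subclusters, by at least 0.5 on the log2 scale on each side. Eln was at -3.40 in subcluster 5 and at 0.56 in subcluster 4, and Efemp1 was at -1.45 in subcluster 5 and at 1.29 in subcluster 4. With 1 library per genotype the difference between subclusters was not tested, and the share of all genes that meet the same rule was not counted. In subcluster 4 the smallest share above 0 in the library labelled depleted was 10.0%.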

How the results depend on the processing

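Each result rests on 1 library per group, and the tables give neither depth nor number of cells per subcluster. No paired analysis was possible because there was a single library per genotype, and no replicate could be left out. At a limit of 0.5, the counts of genes lower and higher went from 1 to 0 lower in subcluster 0, from 4 to 2 lower and from 2 to 0 higher in subcluster 3, from 3 to 1 lower and from 3 to 2 higher in subcluster 4, from 2 to 1 higher in subcluster 5, from 3 to 2 listed in the fibroblast cluster, and from 1 to 0 in the other clusters. At a limit of 1 they were 0 lower in subcluster 0, 2 lower and 0 higher in subcluster 3, 0 lower and 1 higher in subcluster 4, and 0 higher in subcluster 5. With the log2 ratio of shares, subcluster 5 had 0 lower in place of 6 and 0 higher in place of 2, and its median went from -0.88 to 0.00. By that ratio subcluster 0 had 0 lower and 1 higher, and subcluster 3 had 0 higher. The ratio is 0 by construction where every cell of both libraries holds a gene. Its sign was opposite to that of the fold change in 10 of the 40 single values, 5 of them with a fold change of at least 0.25 in size: Efemp2 in subcluster 0 (0.03), Fbn1 in subcluster 3 (-0.01), Eln in subcluster 4 (-0.04), and Fbln5 and Efemp1 in subcluster 5 (0.13 each). Another 16 values crossed the limit of 0.25 in size. Centring on the detected genes left 39 of 40 values on their side of the limit and took Fbln2 in subcluster 4 from -0.25 to -0.28. The mean in place of the median was -0.03, -0.25, 0.03 and -0.84 in subclusters 0, 3, 4 and 5, against -0.03, -0.14, -0.02 and -0.88, so that its sign turned in subcluster 4.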
